A study of Mus musculus with 8 samples.

Results

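The mouse major histocompatibility complex, called H2, is a block of genes on chromosome 17. The members described here were all genes of the count table on that chromosome whose symbol begins with H2-, pseudogenes included. There were 45 among 46517 genes, spread over 3.51 Mb from H2-K2 (first base 33974831) to H2-M2 (first base 37480851) in GRCm38. Of these, 34 had at least 1 count in the 8 libraries and 11 had none. A filter on low counts left 19 for testing, so 15 members with counts were too low to test.

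The libraries were made from total RNA of epididymal ducts of E18.5 mouse embryos, a tissue that forms from the Wolffian duct. The 4 control libraries (numbered 1, 3, 4 and 6) came from embryos with 1 wild-type and 1 floxed Ptk7 allele. The 4 libraries labelled Ptk7 cKO (conditional knockout, numbered 1, 2, 4 and 5) came from embryos with the floxed allele and the disrupted Xst87 allele. All embryos carried the T-Cre transgene and the mT/mG reporter, so controls also held 1 floxed allele exposed to Cre. T-Cre uses the control region of Brachyury, which is active in early mesoderm, so recombination is not limited to the duct epithelium. Nothing in the labels ties a library to an embryo or litter of its own, and the p-values below cover only the variation among these samples, some of which may be technical. The labels name no mouse strain. Ptk7 lies on chromosome 17 as well, so effects of the Ptk7 genotype and of H2 alleles inherited with it cannot be told apart in a comparison by label.

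Class I molecules are made of a heavy chain and beta-2 microglobulin (B2m) and show peptides from inside the cell to T cells. H2-K1 and H2-D1 are the classical heavy chains. The Q, T and M groups encode non-classical relatives, several of which present few peptides or none. Class II molecules are made of an alpha and a beta chain (H2-Aa with H2-Ab1, and H2-Ea with H2-Eb1), sit mainly on B cells, dendritic cells and activated macrophages, and are loaded with peptide with the help of H2-DM and the invariant chain Cd74. Mouse strains carry different H2 haplotypes, and GRCm38 is built on C57BL/6J.

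Total counts ranged from 24807970 to 29590547 per library. Ptk7 itself stood at 112 to 313 CPM (counts scaled to library size with TMM factors) in controls, at 7.33 to 12.5 in the libraries labelled Ptk7 cKO 1, 2 and 4, and at 194 in the library labelled Ptk7 cKO 5, which thus goes against its label. Control 3 stood apart in base composition. Over 14745 genes with a mean of at least 1 CPM, its log2 deviation from the median of the other libraries had a Spearman correlation of -0.49 with the GC content of the longest transcript, against -0.01 to 0.23 in the other libraries. For the 639 genes of at least 60% GC its median deviation was -0.57, and for the 6526 genes of 50% to 60% GC it was -0.14. Most H2 transcripts fall in the second range. The tissue label was met by duct epithelium markers such as Epcam, together with much mesenchyme (Col3a1 at 4108 to 7209 CPM). In such bulk samples fewer cells of a type and less RNA per cell cannot be told apart.

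Of all H2 genes, the 2 classical class I heavy chains were by far the most abundant per length. H2-K1 averaged 20.3 CPM per kilobase and H2-D1 20.2, which do not differ beyond their spread between libraries. H2-Q4 followed at 5.93 CPM per kilobase, H2-T22 at 4.79, H2-DMb2 at 3.12, H2-Eb1 at 2.14 and H2-Ab1 at 2.05. H2-DMa, H2-T23, H2-Aa and H2-DMb1 lay between 1.19 and 1.80, and the other 8 tested members between 0.139 and 0.828.

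**Figure D1:**
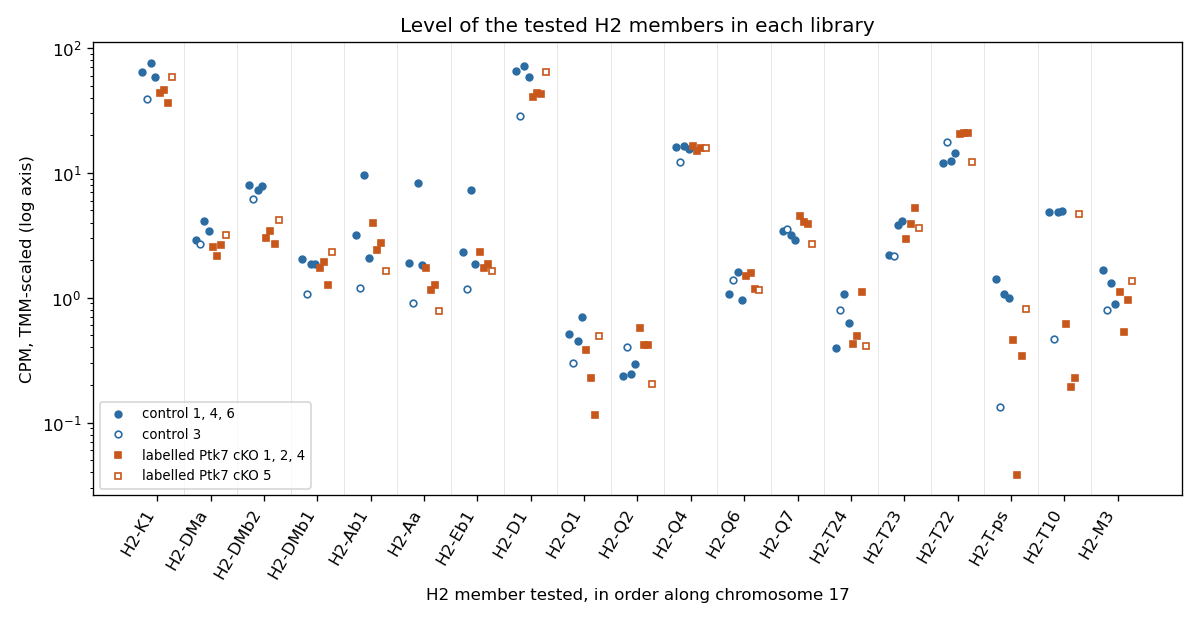
Level of the 19 tested H2 members in each of 8 libraries, as TMM-scaled CPM on a log axis, with members in their order along the chromosome. Circles are controls and squares are libraries labelled Ptk7 cKO, with control 3 and cKO 5 drawn open. H2-K1 and H2-D1 lie highest, and H2-T10 and H2-T-ps show the highest ratios between libraries.

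The study was designed to set ducts lacking Ptk7 against controls. Since cKO 5 kept Ptk7, the tests below compare labels. With edgeR's quasi-likelihood test and Benjamini-Hochberg adjustment over 16469 genes, 0 members passed an adjusted p of 0.05, and 0% of all genes did. At an unadjusted p under 0.05, 2 members were lower (H2-DMb2 and H2-Aa) and 0 were higher, against 4.87% of all genes lower, 3.5% higher and 8.37% in either direction. DESeq2 called 1 member, H2-DMb2, against 1.13% of all genes. Among the 19 tested members the median log2 fold change was -0.26, with 12 below 0, beside a median of 0.01 and 48.6% below 0 over all genes. That median was -0.01 without control 4, while it was -0.41 without control 3 and -0.42 without the library labelled Ptk7 cKO 5.

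**Figure D2:**
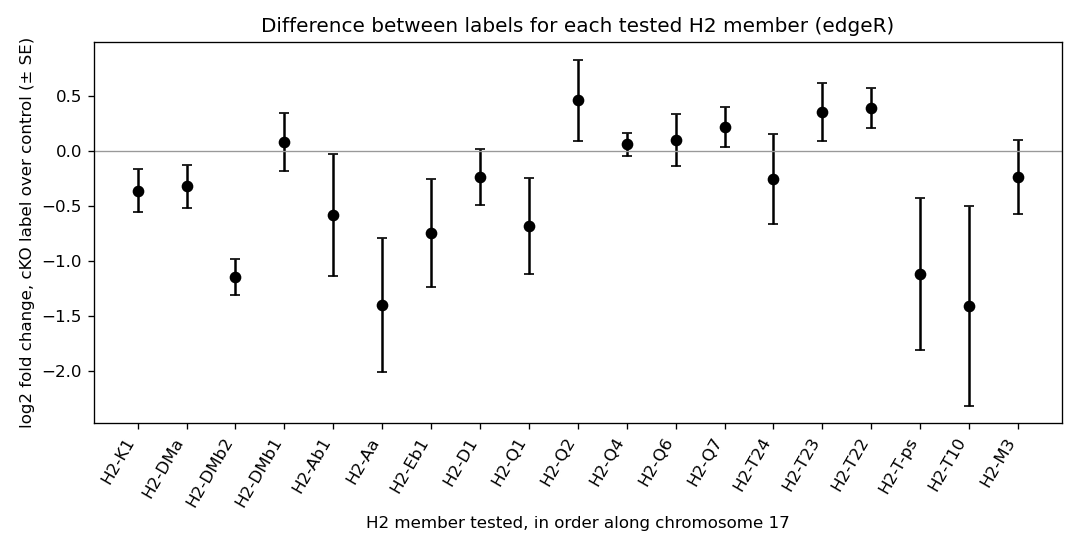
Log2 fold change of the knockout label over control for each tested H2 member, with its SE from edgeR, in order along the chromosome. H2-DMb2 at -1.14 has a short error bar, while H2-T10, H2-T-ps and the class II chains H2-Aa, H2-Ab1 and H2-Eb1 have long ones.

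H2-DMb2 was the 1 tested member whose groups did not overlap, against 5.76% of all genes in either direction. It encodes a beta chain of H2-DM, the chaperone that exchanges peptides on class II molecules. The gene (ENSMUSG00000037548, chr17:34143307-34151553, plus strand) lies next to its near copy H2-DMb1 (ENSMUSG00000079547, chr17:34153072-34160230, plus strand). H2-DMb2 stood at 8.02, 6.16, 7.34 and 7.91 CPM in controls 1, 3, 4 and 6, from 185 to 215 counts. In the libraries labelled Ptk7 cKO 1, 2, 4 and 5 it stood at 3.03, 3.43, 2.67 and 4.17 CPM, from 70 to 102 counts. Every knockout-labelled library was thus below every control, including cKO 5, which kept Ptk7 at the control level. The means were 7.36 ± 0.85 and 3.33 ± 0.64 CPM (SD, n = 4 each), so the second was 45.2% of the first. The log2 fold change was -1.14 (SE 0.17). Its unadjusted p ranked 3 of 16469 genes in edgeR, without passing over all genes (edgeR adjusted p = 0.161). In DESeq2 it ranked 1 of all genes (adjusted p = 4.01e-06). Without the library labelled Ptk7 cKO 5 the log2 fold change was -1.27 (edgeR adjusted p = 0.0852, DESeq2 adjusted p = 1.34e-07).

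The copy H2-DMb1 showed no such gap. It stood at 2.05, 1.07, 1.88 and 1.88 CPM in controls 1, 3, 4 and 6, and at 1.73, 1.95, 1.26 and 2.33 CPM in the libraries labelled Ptk7 cKO 1, 2, 4 and 5. The groups overlapped (log2 fold change 0.08, SE 0.26, edgeR adjusted p = 0.947), and the sign changed with the libraries used (-0.09 without control 3). The ratio of H2-DMb2 to H2-DMb1, computed after these values were seen, was 3.90 to 5.78 in controls and 1.76 to 2.12 in the knockout label. The sum of both genes was 7.22 to 10.1 CPM in controls and 3.93 to 6.50 CPM in the knockout label, again without overlap. H2-DMa, the alpha chain partner of both, was at 2.70 to 4.11 CPM in controls and 2.17 to 3.19 CPM in the knockout label, which overlapped (log2 fold change -0.32, SE 0.19, edgeR adjusted p = 0.695).

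Some cell type marker lists differed in balance between labels. Of 12 duct epithelium markers, led by Epcam (215 to 298 CPM) and Krt8 (166 to 314 CPM), 9 were below 0 with a median log2 fold change of -0.38. DESeq2 called 4 of the 12 lower and 0 higher, against 1.13% of all genes in either direction. At an unadjusted p under 0.05 in edgeR, 7 were lower and 1 was higher, against 4.87% and 3.5% of all genes. The sum of the 12 markers overlapped, at 971 to 1129 CPM in controls and 829 to 1162 CPM in the knockout label. Of 12 macrophage markers, led by Csf1r (37.4 to 65.1 CPM) and C1qb (32.5 to 51.0 CPM), 11 were above 0 with a median of 0.15, and none was called. The 7 smooth muscle markers, led by Acta2 (1514 to 2592 CPM) and Tagln (570 to 782 CPM), had a median of -0.32. At an unadjusted p under 0.05 in edgeR, 5 were lower and 1 was higher, against 4.87% and 3.5% of all genes. The sum of the 7 was 3208 to 3820 CPM in controls and 2489 to 3173 CPM in the knockout label, without overlap. The 6 mesothelium markers, led by Upk3b (202 to 337 CPM) and Wt1 (83.5 to 127 CPM), had a median of 0.32. DESeq2 called Wt1 higher, and the mesothelium sum overlapped, at 429 to 519 CPM in controls and 508 to 700 CPM in the knockout label. The 8 mesenchyme markers, led by Col3a1 and Col1a1 (4076 to 5851 CPM), had a median of 0.06. The part of these cell types in the H2-DMb2 values was not tested.

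The H2-DMb copies share much of their sequence. The coding sequences of H2-DMb1 and H2-DMb2 in GENCODE M21, each of 783 bases, were aligned and were 95.9% identical, with 32 differences. Of all 50-base stretches in H2-DMb2 transcripts, 21.2% also occur in H2-DMb1. The 120 coding bases where the pair differs most (bases 201 to 320) hold 23 of those differences, marked here by capitals.
H2-DMb1: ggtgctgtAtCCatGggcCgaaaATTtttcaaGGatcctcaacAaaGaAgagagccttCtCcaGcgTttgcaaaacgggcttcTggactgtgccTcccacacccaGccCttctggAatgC
H2-DMb2: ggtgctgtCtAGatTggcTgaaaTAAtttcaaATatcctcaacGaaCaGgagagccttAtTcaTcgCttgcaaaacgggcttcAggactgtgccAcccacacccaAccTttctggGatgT
Whether alleles differ in this stretch was not tested, since counts hold no sequence.

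H2-T10 differed strongly between single libraries. H2-T10 and H2-T22 encode non-classical class I molecules that are known as ligands of gamma delta T cell receptors, and H2-T10 is annotated as a polymorphic pseudogene in GENCODE M21. H2-T10 (ENSMUSG00000079491, chr17:36115876-36121465, minus strand) stood at 4.82, 0.47, 4.84 and 4.96 CPM in controls 1, 3, 4 and 6. It stood at 0.61, 0.19, 0.23 and 4.70 CPM in the libraries labelled Ptk7 cKO 1, 2, 4 and 5. In counts these were 122, 14, 139 and 135 against 16, 5, 6 and 115. Controls 1, 4 and 6 and cKO 5 thus lay close together, and control 3 and cKO 1, 2 and 4 were far below, with nothing between. The highest library was 26.0 times the lowest. In each label 1 library lay at the level of the other label, and the difference between labels did not pass (log2 fold change -1.41, SE 0.91, edgeR adjusted p = 0.711). With cKO 5 left out, the fold change became -3.43 (SE 0.79, edgeR adjusted p = 0.246, DESeq2 adjusted p = 0.0189). That DESeq2 fit was added after seeing the data and called 1.1% of all genes. With both cKO 5 and control 3 left out, a choice made after seeing the data, the fold change became -3.80 (SE 0.36, edgeR adjusted p = 0.0146), where 0.0181% of all genes passed. Those are the libraries in which H2-T10 goes against the label, so none of these values is separate support.

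H2-T22 (ENSMUSG00000056116, chr17:36037128-36042747, minus strand) had the opposite order. It stood at 12.1, 17.7, 12.4 and 14.5 CPM in controls 1, 3, 4 and 6, and at 20.4, 20.8, 20.8 and 12.2 CPM in the libraries labelled Ptk7 cKO 1, 2, 4 and 5. The libraries with the least H2-T10, control 3 and cKO 1, 2 and 4, were those with the most H2-T22. The log2 fold change between labels was 0.39 (SE 0.18, edgeR adjusted p = 0.620). Leaving out cKO 5 gave 0.54 (SE 0.14, edgeR adjusted p = 0.277, DESeq2 adjusted p = 0.0430). That DESeq2 fit was added after seeing the data and called 1.1% of all genes. In H2-T22 too cKO 5 goes against its label, so these values are no separate support. The sum of H2-T10 and H2-T22 ranged only from 16.9 to 21.0 CPM over the 8 libraries. H2-T10 was 34.2% to 39.9% of H2-T22 in controls 1, 4 and 6 and 38.5% in cKO 5, but 0.919% to 3.01% in control 3 and cKO 1, 2 and 4.

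These genes are also near copies. Their coding sequences, of 1137 bases each, were 96.9% identical with 35 differences over 1134 aligned bases. Of the 50-base stretches in H2-T10 transcripts, 31.7% also occur in H2-T22. Reads from the stretches that both genes share cannot be assigned to either from sequence alone, and the authors' setting for reads that match several places is not given in the sources used here.

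H2-T-ps, a neighbouring pseudogene, was also lowest in control 3 and cKO 1, 2 and 4. It stood at 1.42, 0.13, 1.08 and 0.99 CPM in controls 1, 3, 4 and 6, and at 0.46, 0.04, 0.34 and 0.82 CPM in the libraries labelled Ptk7 cKO 1, 2, 4 and 5, from 1 to 36 counts each (log2 fold change -1.12, SE 0.69, edgeR adjusted p = 0.696). H2-T10 starts 10.4 Mb from the start of Ptk7, and H2-DMb2 starts 12.4 Mb from it. In H2-T10, H2-T22 and H2-T-ps control 3 lay with cKO 1, 2 and 4, and cKO 5 lay nearest the other controls, while in H2-DMb2 each library lay with its label. Antisense genes that overlap H2-T10 and H2-T22 (BC023719 and A930015D03Rik) had 1 and 0 counts in all libraries together.

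**Figure D3:**
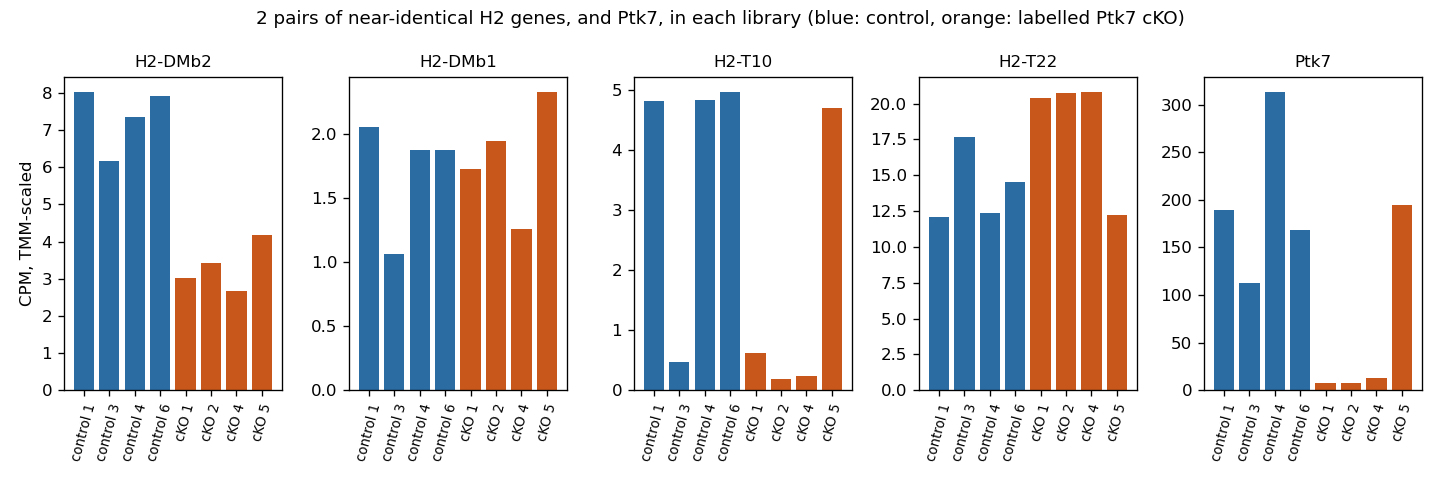
TMM-scaled CPM of H2-DMb2, H2-DMb1, H2-T10, H2-T22 and Ptk7 in each library, with control bars in blue and bars of libraries labelled Ptk7 cKO in orange. H2-DMb2 separates the labels (at least 6.16 against at most 4.17 CPM), whereas in H2-T10 and H2-T22 control 3 sits with cKO 1, 2 and 4, and cKO 5 with the other controls.

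The classical class I heavy chains were at a moderate level in every library. H2-K1 (ENSMUSG00000061232, chr17:33996017-34000333, minus strand) stood at 64.5, 39.1, 76.0 and 59.1 CPM in controls 1, 3, 4 and 6, and at 43.6, 46.4, 36.3 and 59.2 CPM in the libraries labelled Ptk7 cKO 1, 2, 4 and 5. H2-D1 (ENSMUSG00000073411, chr17:35262730-35267499, plus strand) stood at 66.0, 28.4, 71.7 and 59.2 CPM in the same controls and at 40.6, 43.4, 42.5 and 64.8 CPM in the same knockout-labelled libraries. In both genes control 3 and cKO 1, 2 and 4 were the 4 lowest libraries, as for H2-T10, though by a smaller margin. H2-K1 averaged 59.7 ± 15.4 CPM in controls against 46.4 ± 9.54 CPM under the knockout label (SD, n = 4 each, log2 fold change -0.36, SE 0.19, edgeR adjusted p = 0.666). H2-D1 averaged 56.3 ± 19.3 against 47.8 ± 11.4 CPM (-0.24, SE 0.25, edgeR adjusted p = 0.815). Neither difference exceeded the spread between replicates. The longest transcripts of H2-K1 and H2-D1 have 54.3% and 55.9% GC, the range in which control 3 was low in general, and the part of that in its values was not tested. Without control 3 the log2 fold changes were -0.52 for H2-K1 (edgeR adjusted p = 0.406) and -0.46 for H2-D1 (0.481), and without control 4 they were -0.23 (0.774) and -0.10 (0.932).

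Both promoters carry the kB palindrome and the Y box, which are among the sequences known to switch on class I genes. Other such sequences were not searched. NF-kB binds the kB palindrome, and NF-Y binds the Y box, searched as ATTGG. Both were searched on both strands, and they do not overlap in the windows shown. In 180 bases before the RefSeq start, the kB palindrome occurred in 6 of 27025 promoters (0.0222%), of which 3 belonged to H2-K1, H2-D1 and H2-Q6. The Y box occurred in 28 of 32 H2 promoters found in RefSeq and in 28.2% of all. The windows of the 3 genes are shown because they share both motifs, in capitals in either orientation, the longer being the kB palindrome (GRCm38.p6, first listed start, written along the gene's strand).
H2-K1, chr17:34000348-34000527, minus strand: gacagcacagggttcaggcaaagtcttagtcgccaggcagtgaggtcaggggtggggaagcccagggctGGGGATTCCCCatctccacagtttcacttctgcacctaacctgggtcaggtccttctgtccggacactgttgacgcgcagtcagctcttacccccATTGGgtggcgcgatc
H2-D1, chr17:35262914-35263093, plus strand: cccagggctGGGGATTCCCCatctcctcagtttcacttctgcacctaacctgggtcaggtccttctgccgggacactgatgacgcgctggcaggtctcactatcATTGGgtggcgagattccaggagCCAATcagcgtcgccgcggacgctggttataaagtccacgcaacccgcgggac
H2-Q6, chr17:35424670-35424849, plus strand: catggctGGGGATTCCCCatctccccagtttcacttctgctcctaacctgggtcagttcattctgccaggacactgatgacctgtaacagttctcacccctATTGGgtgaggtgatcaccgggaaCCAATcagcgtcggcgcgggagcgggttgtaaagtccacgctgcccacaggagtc
These matches are descriptions of the reference and not measured sites. The H2-D1 window lies inside the gene span of the count table, whose first base is 35262730. H2-Q6 was at 0.96 to 1.60 CPM, far below H2-K1 and H2-D1 in every library. Its level is uncertain, since 35.0% of the 50-base stretches in its transcripts occur in another gene. The part of the motifs in these levels was not tested.

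Among the partners of the class I heavy chains, no difference between labels passed in edgeR or in DESeq2 over 8 libraries. B2m, the light chain, was at 212 to 233 CPM in controls and 192 to 213 CPM in the knockout label, highest in control 3 (log2 fold change -0.12, SE 0.07, edgeR adjusted p = 0.690). Among loading factors, the peptide transporter genes Tap1 (0.16, edgeR adjusted p = 0.793) and Tap2 (0.18, 0.882) and tapasin (Tapbp) (0.01, 0.988) had log2 fold changes near 0. Tap2 was at 1.10 CPM in control 3 and 2.59 to 3.55 CPM in the other libraries. Of the immunoproteasome subunits, Psmb10 was the 1 antigen presentation gene whose groups did not overlap, at 13.9 to 21.9 CPM in controls and 23.4 to 27.0 CPM in the knockout label. That is 1 of 41 tested, against 5.76% of all genes in either direction. Its log2 fold change was 0.40 (SE 0.13, edgeR adjusted p = 0.417, DESeq2 adjusted p = 0.192). Psmb8 (0.38, edgeR adjusted p = 0.627) and Psmb9 (-0.08, 0.921) overlapped. The 5 genes of the immunoproteasome list, 4 above 0 and 1 below, summed to 135.7 to 152.8 CPM in controls. In the knockout label they summed to 153.3 to 165.5 CPM, without overlap but by a narrow gap. Nlrc5, the class I activator, was below the filter at 0.08 to 0.38 CPM. Of 41 tested genes of antigen presentation outside the H2 members, 0 passed in edgeR and 0 in DESeq2, and DESeq2 without cKO 5 called 1, the peptide trimming gene Erap1, against 1.1% of all genes. At an unadjusted p under 0.05, 1 was higher and 2 were lower, against 3.5% and 4.87% of all genes, with a median log2 fold change of -0.02.

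The interferon-induced genes, which often move with class I, gave no call among 31 tested (edgeR and DESeq2 0 each), with a median log2 fold change of -0.03. At an unadjusted p under 0.05 in edgeR, 1 was higher and 0 were lower, against 3.5% and 4.87% of all genes. Without cKO 5, DESeq2 called 1.1% of all genes. Of this list it called Cxcl10, an interferon-induced chemokine gene named here after its values were seen (log2 fold change -1.32, DESeq2 adjusted p = 0.000467), while edgeR did not (adjusted p = 0.214). The summed level of the interferon-induced genes was 368 to 417 CPM in controls and 354 to 424 CPM in the knockout label. Ifitm3 and Bst2 were the most abundant of them, at 80.1 to 97.6 and 38.3 to 62.0 CPM. The 10 endothelium markers, whose cells carry much class I, summed to 456 to 520 CPM in controls and 417 to 574 CPM in the knockout label, led by Pecam1 (73.2 to 131 CPM) and Kdr (89.2 to 115 CPM). The part of endothelium in the class I values was not tested.

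Class II chains were high in 1 control library. H2-Aa (ENSMUSG00000036594, chr17:34282744-34287827, minus strand) stood at 1.90, 0.90, 8.32 and 1.84 CPM in controls 1, 3, 4 and 6, and at 1.73, 1.14, 1.26 and 0.78 CPM in the libraries labelled Ptk7 cKO 1, 2, 4 and 5. H2-Ab1 (ENSMUSG00000073421, chr17:34263209-34269418, plus strand) stood at 3.16, 1.20, 9.67 and 2.10 CPM in these controls and at 3.99, 2.40, 2.75 and 1.64 CPM in the knockout label. H2-Eb1 (ENSMUSG00000060586, chr17:34305877-34316199, plus strand) stood at 2.33, 1.17, 7.31 and 1.88 CPM and at 2.34, 1.72, 1.87 and 1.64 CPM. In each gene control 4 was the highest library and the groups otherwise overlapped. With H2-T10 these were the 4 of 17 members with a mean of at least 0.5 CPM whose highest library was at least 4 times the lowest after 0.5 CPM was added to both, against 1.18% of all genes.

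The log2 fold changes of H2-Aa (-1.40, SE 0.61, edgeR adjusted p = 0.577), H2-Ab1 (-0.58, SE 0.55, 0.794) and H2-Eb1 (-0.74, SE 0.49, 0.714) moved towards or past 0 without control 4, when they were -0.32, 0.33 and 0.08 (edgeR adjusted p = 0.817, 0.824 and 0.945). The invariant chain Cd74 moved with them, at 23.5 CPM in control 4 and 2.40 to 5.77 CPM elsewhere (log2 fold change -1.43, SE 0.58, edgeR adjusted p = 0.532, and -0.33 without control 4). Less abundant class II members did so too. H2-Ob, the beta chain of the H2-DM inhibitor H2-O, had 43 counts in control 4 and 1 to 6 elsewhere. Its partner H2-Oa had 12 counts in control 4 and 0 to 3 elsewhere, and H2-Eb2 had 5 against 0 or 1. Ciita, the class II activator, was low throughout, at 0.12 to 0.48 CPM.

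Markers of lymphocytes were high in the same library. The 8 markers on the list, none at 0 in every library, summed to 9.40 CPM in control 4, against 0.50 to 1.82 CPM in the other controls and 0.69 to 1.98 CPM in the knockout label. Cd79a, a part of the B cell receptor, stood at 4.77 CPM in control 4 and at most 0.47 CPM in the others. Cd4, the other abundant marker of the list and also found on macrophages, was at 0.37 to 1.26 CPM with control 4 in the middle. Among dendritic cell markers, Ccr7, also found on lymphocytes, was at 2.96 CPM in control 4 and 0.26 to 0.61 CPM elsewhere, while Zbtb46 (15.9 to 21.3 CPM) and Batf3 (5.13 to 10.9 CPM) led that list without standing out there. The 12 macrophage markers summed to 267 CPM in control 4, inside the range of the other controls (202 to 321 CPM) and that of the knockout label (258 to 367 CPM). The part of these cells in the class II values was not tested.

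**Figure D4:**
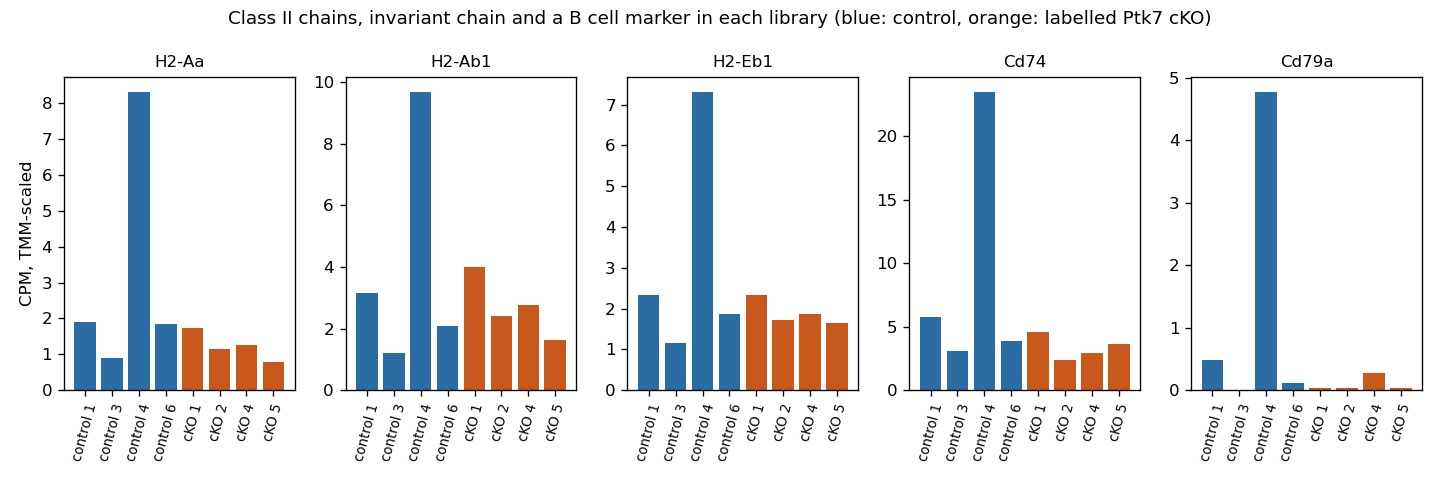
TMM-scaled CPM of the class II chains H2-Aa, H2-Ab1 and H2-Eb1, the invariant chain Cd74 and the B cell marker Cd79a in each library, with control bars in blue and bars of libraries labelled Ptk7 cKO in orange. Control 4 is the highest library in all 5 panels, at 8.32, 9.67, 7.31, 23.5 and 4.77 CPM.

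H2-Ea-ps, the alpha chain gene that pairs with H2-Eb1, had 0 counts in all 8 libraries, control 4 included. At these depths a count of 0 allows up to 0.101 to 0.121 CPM (3 counts per library, for counting error only). As background, the alpha chain gene of the C57BL/6 haplotype carries a deletion that silences it, and GENCODE M21 lists it as a polymorphic pseudogene. Which haplotypes these embryos carried was not tested. The promoters of H2-Aa, H2-Eb1 and the H2-DMb pair are shown with their Y boxes in capitals, the pair because its copies differed in level. Those of H2-Oa, H2-Ob and H2-Eb2 hold a Y box too. The windows follow RefSeq starts, which can differ from the gene spans of the count table. The H2-DMb2 window lies inside its gene span (first base 34143307), and the H2-DMb1 window runs past the first base of its gene (34153072).
H2-Aa, chr17:34287824-34288003, minus strand: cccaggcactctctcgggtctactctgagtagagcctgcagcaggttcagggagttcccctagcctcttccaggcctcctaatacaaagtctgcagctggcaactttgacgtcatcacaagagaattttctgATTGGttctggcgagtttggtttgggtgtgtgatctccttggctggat
H2-Eb1, chr17:34305687-34305866, plus strand: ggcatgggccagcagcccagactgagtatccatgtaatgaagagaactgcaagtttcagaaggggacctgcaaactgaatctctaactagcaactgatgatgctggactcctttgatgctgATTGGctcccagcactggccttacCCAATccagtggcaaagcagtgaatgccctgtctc
H2-DMb1, chr17:34153011-34153190, plus strand: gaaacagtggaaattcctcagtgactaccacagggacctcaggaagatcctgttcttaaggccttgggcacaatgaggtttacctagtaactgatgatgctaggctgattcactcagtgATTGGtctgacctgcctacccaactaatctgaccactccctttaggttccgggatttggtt
H2-DMb2, chr17:34145069-34145248, plus strand: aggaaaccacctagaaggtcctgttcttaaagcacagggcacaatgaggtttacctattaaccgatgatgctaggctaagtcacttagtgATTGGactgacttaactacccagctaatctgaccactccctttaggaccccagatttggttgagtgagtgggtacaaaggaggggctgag
Both H2-DMb copies hold the box. The part of the promoters in their levels was not tested.

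H2-Q4 varied least between libraries among the 19 tested members, while H2-Q1, at low counts, varied 6.10-fold. H2-Q4, whose product is a non-classical class I chain, stood at 16.1, 12.3, 16.4 and 15.5 CPM in controls 1, 3, 4 and 6, and at 16.3, 15.0, 15.8 and 15.7 CPM in the libraries labelled Ptk7 cKO 1, 2, 4 and 5. Its highest library was 1.34 times its lowest, with control 3 the lowest (log2 fold change 0.06, SE 0.11, edgeR adjusted p = 0.897). H2-Q7, which with other Q genes encodes Qa-2, stood at 2.90 to 3.56 CPM in controls and at 2.70 to 4.49 CPM in the knockout label, with cKO 5 the lowest (0.22, SE 0.18, edgeR adjusted p = 0.770). H2-Q6 was at 0.96 to 1.60 CPM in controls and 1.15 to 1.56 in the knockout label. H2-Q1 and H2-Q2 had 3 to 19 and 5 to 15 counts per library. Of the 50-base stretches in H2-Q4, H2-Q6 and H2-Q7 transcripts 36.4%, 35.0% and 26.5% occur in another gene, so their levels are uncertain. H2-Q5, H2-Q10 and H2-Q3 had at most 6 counts in any library.

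Among the remaining T and M genes, H2-T23, which encodes Qa-1 and presents leader peptides of class I chains to natural killer cell receptors, stood at 2.16 to 4.16 CPM in controls and 2.96 to 5.27 in the knockout label (log2 fold change 0.35, SE 0.26, edgeR adjusted p = 0.745). H2-M3, which presents formylated bacterial and mitochondrial peptides, was at 0.80 to 1.66 and 0.53 to 1.35 CPM (-0.24, SE 0.33, edgeR adjusted p = 0.860). Its log2 fold change was -0.02 without control 1 and -0.03 without cKO 2. H2-T24 was at 0.40 to 1.08 CPM in controls and 0.41 to 1.11 in the knockout label. The M genes at 0 throughout were H2-M1, H2-M11, H2-M10.1, H2-M10.3, H2-M10.4, H2-M10.5, H2-M10.5-ps1 and H2-M10.6. The M10 genes are known from the vomeronasal organ. The class II pseudogenes H2-Pa and H2-Pb were also at 0. H2-Bl, H2-K2, H2-T3, H2-M2, H2-M5, H2-M9, H2-M10.2 and H2-M6-ps had 0 to 7 counts per library. H2-Ke6 is not a histocompatibility gene but the steroid dehydrogenase now called Hsd17b8. It had 2 to 11 counts per library, and 85.4% of its exon bases are shared on the same strand with the model Gm20427, so its count is uncertain.

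The interval between the first and last H2 gene holds 275 other genes, of which 91 were tested. Their fold changes had the opposite balance to the members, with 66 above 0 and 25 below and a median log2 fold change of 0.12. Without control 3 the counts were 56 and 35 and the median 0.04. None passed in edgeR, and DESeq2 called 1 of them, against 1.13% of all genes. It was Stk19, a nuclear protein gene (7.22 to 10.8 CPM in controls, 12.2 to 14.7 CPM in the knockout label, log2 fold change 0.53, SE 0.14, edgeR adjusted p = 0.277, DESeq2 adjusted p = 0.0332). The groups did not overlap in 9 genes that were higher and 1 that was lower, against 2.65% and 3.11% of all genes. The one that was lower was Slc44a4, a choline transporter-like gene (4.66 to 6.79 CPM in controls, 2.90 to 4.31 CPM in the knockout label, log2 fold change -0.63, SE 0.18, edgeR adjusted p = 0.353). Cchcr1 (0.47, edgeR adjusted p = 0.491), the heat shock gene Hspa1a (0.67, 0.491) and 2300002M23Rik (-0.60, 0.498) followed by p.

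Class I-like genes on other chromosomes gave no call. Of 13 such genes 11 were tested, with 4 above 0, 7 below and a median log2 fold change of -0.08, beside 0.01 over all genes. At an unadjusted p under 0.05, 0 were higher and 1 was lower in edgeR, against 3.5% and 4.87% of all genes.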

How the data were processed

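The authors deposited raw counts per gene, 1 column per library, with each gene's summed exon length, per the file headers. STAR, featureCounts and the build GRCm38 are named as the authors' processing, per the submitters' processing notes. Tool versions, strand setting and the rule for multiply matching reads were not given in the sources used here. Symbols were matched by Ensembl identifier for 46005 of 46517 genes. Label was tested on these counts in R 4.3.3 by edgeR 4.0.16, using TMM factors, filterByExpr (16469 genes kept) and the quasi-likelihood F test over 8 libraries. The SE is the log2 fold change divided by the square root of F. Alternatives were DESeq2 1.42.0, other size factors, other filters, a replicate block and leaving out libraries. Coding sequences were aligned with Biopython 1.88. The scripts were tested on simulated data.

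The members and lists were chosen with earlier results of these data known. Full values were given to members with a mean of at least 5 CPM, or of at least 0.5 CPM with a 4-fold range. Also named were 9 genes of antigen presentation and any whose groups did not overlap, the 5 interval genes of smallest p with a mean of at least 1 CPM, and the 2 most abundant markers of each list. Of 153 listed genes, 2 were not found. Named after their values were seen were Ccr7, Ptk7, H2-T-ps and other members. Numbers shared by both labels were 1 and 4. The aligned bases of a further gene pair are not reported here.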

Additional observations from a re-analysis of the deposited data

Results flagged for a closer look

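A library was picked out where its gap to the nearest library of its label, divided by the range of the 4, exceeded Dixon's critical value for 4 samples. Of 98 groups examined 9 did so, and chance gives about 1 in 20. Control 4 stood high in H2-Aa (8.32 CPM, next 1.90) and in Cd74 (23.5 CPM, next 5.77). Control 3 stood low in H2-T10 (0.47 CPM, next 4.82) and in Tap2 (1.10 CPM, next 3.0). The library labelled Ptk7 cKO 5 stood high in H2-T10 (4.70 CPM, next 0.61) and in H2-D1 (64.8 CPM, next 43.4), and low in H2-T22 (12.2 CPM, next 20.4). The library labelled Ptk7 cKO 4 stood high in H2-T24 (1.11 CPM, next 0.50), and cKO 2 in Epcam (298 CPM, next 221).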

How the results depend on the processing

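The number of genes past an adjusted p of 0.05 over all genes was 0, and it was 1 with no filter, 184 in DESeq2 and 0 to 2 when 1 library was left out. Among H2 members it was 1 in DESeq2 (H2-DMb2). In the alternatives added after seeing the data it was 177 over all genes and 3 among members for DESeq2 without the library labelled Ptk7 cKO 5 (H2-DMb2, H2-T10 and H2-T22), and 3 and 1 for edgeR without that library and control 3 (H2-T10). For antigen presentation genes DESeq2 without cKO 5 gave 1 (Erap1), for interval genes DESeq2 gave 1 with or without cKO 5 (Stk19), and for marker and interferon lists it gave 5 in each case. Under a replicate block over the libraries numbered 1 and 4 the counts were 7 over all genes, 0 among members and 1 in the marker lists. The labels do not say what the numbers mean. The deviations of same-numbered libraries had correlations of -0.09 and 0.02, and a shared litter or batch was not tested. H2-DMb2 kept its sign, between -1.43 and -1.05, in every alternative, with adjusted p from 1.34e-07 (DESeq2 without cKO 5) to 0.365 (without control 4).

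Of 508 values of single genes under alternatives, 22 changed sign, in 9 genes, none past the threshold. Leaving out 1 library in turn gave H2-DMb1 -0.0933 to 0.222, H2-Ab1 -0.887 to 0.333, H2-Eb1 -1.02 to 0.0842, H2-Q4 -0.0297 to 0.0992, H2-Q6 -0.0109 to 0.234, Tap2 -0.0789 to 0.313, Tapbp -0.0644 to 0.0583 and Psmb9 -0.154 to 0.00601. The extremes came without control 3 or control 4, except the highest H2-DMb1 (without cKO 4), the lowest H2-Q6 (without control 6) and the highest Psmb9 (without cKO 2). The replicate block gave H2-DMb1 -0.408, H2-Q4 -0.0188, H2-T24 0.0592 and Tapbp -0.197. Without cKO 5 and control 3 the values were H2-DMb1 -0.229, H2-Q4 -0.0247, Tap2 -0.0759 and Tapbp -0.0775, and DESeq2 without cKO 5 gave H2-DMb1 -0.0571 and Tapbp -0.00873. The cause of these changes was not tested. CPM scaled by total counts moved no mean level by more than its spread.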
